A study of Mus musculus with 2 samples.

Results

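Gut endoderm cells that carried no Cdx2 transcript were picked from the caudal tissue of mouse embryos by their transcripts alone. Cdx2 encodes the caudal-type homeodomain factor that marks the hindgut and the tail end of the embryo. The tissue came from wild-type C57BL/6J embryos at embryonic day 8.5, was pooled and dissociated into single cells with TrypLE, and was measured in 2 droplet libraries with a 10x Genomics 5′ kit. Both libraries belong to 1 group, with no treatment, transgene label or mutant. The labels leave out whether each library had its own pool of embryos. The p-values here measure how differences between classes of cells varied over 2 libraries, and that variation may be technical. A barcode was kept when it held at least 2000 unique molecular identifiers (UMIs, each a counted transcript molecule), at least 1000 genes and 0.3% to 10% mitochondrial UMIs, which left 11228 barcodes in library 1 and 8322 in library 2. Cdx2-negative gut cells had to hold at least 3 UMIs in sum of Foxa1, Cpn1, Gpx2 and Nepn, 0 UMIs of Cdx2, 0 UMIs of Noto, a gene of the notochord, and under 20 UMIs in sum of Apoa1, Ttr and Apob, which are abundant in extraembryonic endoderm. The rule found 138 cells in library 1 and 54 in library 2, or 192 of 19550 kept barcodes. Cells that met the same rule but held at least 1 Cdx2 UMI, called Cdx2-positive gut cells, numbered 1047 and 498. Barcodes with none of the 4 marker transcripts numbered 8621 and 7112.

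The definitive endoderm of the embryo joins with cells of visceral endoderm origin to form the gut tube, an epithelium whose regions are laid out along the body axis. FOXA factors open chromatin at endoderm genes throughout that tube. CDX factors, together with Wnt and FGF signals from the tail bud, set the posterior character of the hindgut and act on the Hox genes, whose groups are switched on in order from the head end to the tail end. Foregut and anterior midgut cells lack Cdx2 at this stage, and retinoic acid made by the trunk mesoderm is kept out of the tail end by the degrading enzyme CYP26A1.

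The Cdx2-negative gut cells held 2423796 UMIs in sum in library 1 and 587751 in library 2, with medians of 16444.5 and 10755 UMIs per cell. Cdx2-positive gut cells were deeper, with medians of 22464 and 14340.5 UMIs. The libraries shared 114 barcodes among those kept and 0 among the Cdx2-negative gut cells. Scrublet, a doublet caller, marked 7 of the 138 cells in library 1 and 0 of the 54 in library 2, and these were retained. Levels are given in CPM, the UMIs of a gene per 1000000 UMIs of all cells of a class in a library.

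The 4 marker transcripts chose the cells, and their levels are a description. Foxa1, the endoderm pioneer factor, reached 170.0 CPM in library 1 and 153 CPM in library 2 in Cdx2-negative gut cells. It reached 95.8 and 126 CPM in Cdx2-positive gut cells. Cpn1, a subunit of the plasma enzyme carboxypeptidase N, was found in 122 of 138 and 45 of 54 Cdx2-negative cells. Nepn, the proteoglycan nephrocan, was found in 51 and 24 of them and reached at most 74 and 56 UMIs in a cell. Gpx2, the gastrointestinal glutathione peroxidase, differed between the libraries, at 191 CPM in library 1 and 32.3 CPM in library 2. The same gap was seen in Cdx2-positive gut cells, at 232 and 62.3 CPM. Cells just inside the limit were unlike the rest: with exactly 3 marker UMIs, 28 and 18 cells held 70.1 and 338 CPM of Epcam, an epithelial adhesion molecule, against 745 and 698 CPM in the 110 and 36 cells with 4 or more. Cells just outside it, with 2 marker UMIs and no Cdx2, numbered 67 and 44 and held 24.0 and 102 CPM of Epcam.

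Against barcodes with no marker transcript, the genes that led Cdx2-negative gut cells were those of an epithelium. This contrast was made by the rule, so no test is given. Spink1, a secreted trypsin inhibitor, reached 839 and 299 CPM in Cdx2-negative gut cells, against 16.7 and 0.819 CPM in barcodes without marker transcripts. Epcam reached 606 and 584 CPM in Cdx2-negative gut cells, against 63.7 and 53.7 CPM. The claudin Cldn6, a tight junction protein, reached 278 and 262 CPM, against 35.4 and 24.5 CPM. The peptidases Cpm, Tmprss2 and Dpp4, the polarity gene Crb3, the keratins Krt7 and Krt19 and the ligand gene Apela were also among the 15 genes with the largest folds. Of 28 genes for epithelial adhesion and keratins, 14 were at least 2-fold higher in both libraries, where 87 of 6762 genes with at least 20 CPM in the higher class, or 1.29%, were. After each cell was thinned to 5000 UMIs, 87 of 121 and 38 of 45 Cdx2-negative gut cells held Epcam, or 71.9% and 84.4%. Endothelial barcodes, chosen by at least 5 UMIs of Kdr, Cdh5 and Tek and thinned alike, should lack Epcam and held it in 4.9% and 3.1%. Thinning left out 17 and 9 of the Cdx2-negative gut cells.

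The name gut endoderm did not suit all 192 cells. Clustering of the cells by their most variable genes gave 4 clusters. They are described by their leading genes without a test, because the same counts made the clusters. Cluster 2, with 41 cells of library 1 and 8 of library 2, was led by Crabp2, Crabp1, Ptn, Hes3, Pax3, Ncam1, Zic2 and Sox1, which are genes of the neural tube and its precursors. Its median cell held 0 Epcam UMIs, and 8 of its 49 cells held 3 or more. Of the 31 cells of the rule that held Cpn1 but none of Foxa1, Gpx2 and Nepn, 27 lay in cluster 2. Over 12 neural tube markers, the median cell of cluster 2 held 539 and 723 summed CPM in libraries 1 and 2, against a median of 0 to 139 in the other clusters. Over the 28 epithelial genes it held 396 and 397 summed CPM, against 6568 to 8180. The main comparisons with Cdx2-positive gut cells are therefore also given for the 88 and 44 cells of the rule with at least 3 Epcam UMIs, set against the 901 and 462 Cdx2-positive gut cells with the same. This subset was chosen after the neural transcripts had been seen, and it makes Epcam a gene of the rule.

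**Figure D1:**
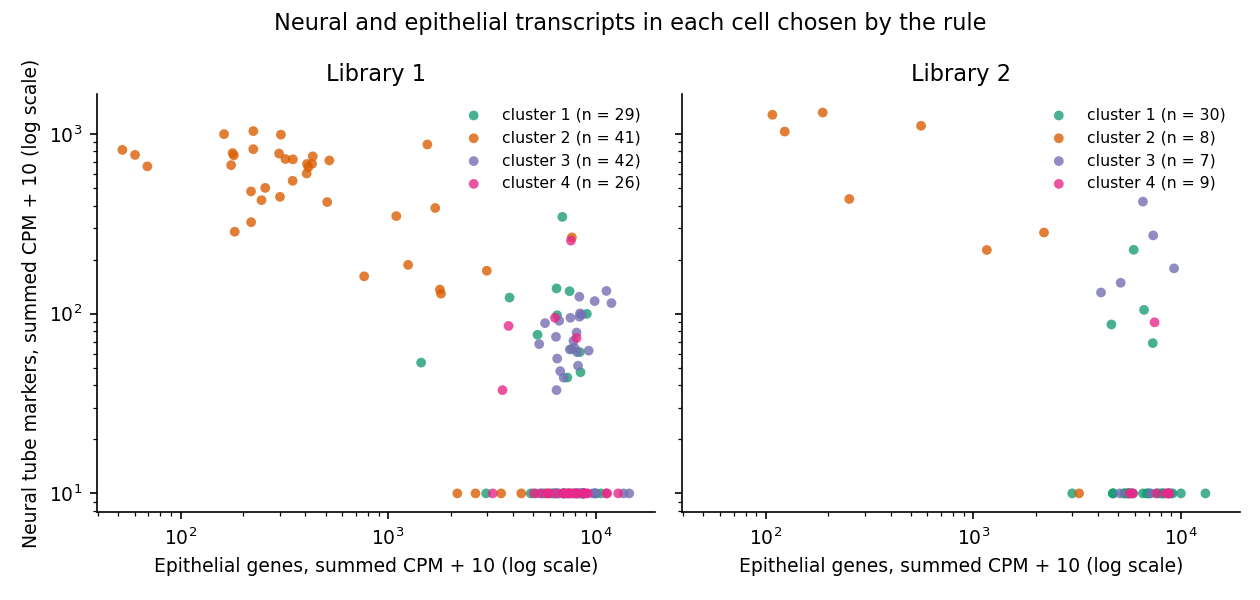
Each point is 1 cell chosen by the rule, with the summed CPM of 28 epithelial genes on the x axis and of 12 neural tube markers on the y axis, both plus 10 on log scales, for libraries 1 and 2 (colours are clusters). Most cells of cluster 2 sit at the upper left, with a median of 396 and 397 epithelial CPM, while the other clusters sit at the lower right.

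Clusters 1, 3 and 4 held 59, 49 and 35 cells and all carried Epcam, at 757, 1129 and 630 CPM over both libraries, against 60.9 CPM in cluster 2. Cluster 1, with 29 and 30 cells, was led by Fabp1, the liver fatty acid binding protein, Nepn and Peg3. Next came Pyy, the gut hormone peptide YY, Cpm, the hedgehog ligand gene Shh and Ttr, a carrier of thyroid hormone. The lead of Fabp1 rested on library 2, with 56 UMIs, as its 7 UMIs in library 1 all came from 1 cell. Cluster 3, with 42 and 7 cells, was led by Sox17, a transcription factor of early endoderm, the matricellular genes Smoc2 and Smoc1, Vstm2b, Trap1a and the collagen gene Col4a1. Cluster 4, with 26 and 9 cells, was led by 3 haemoglobin genes, present in library 2 only and mostly in 1 cell (160 of 165 Hba-x UMIs), and then by Dkk1, a secreted Wnt inhibitor, the water channel gene Aqp3, Phlda2, the chemokine gene Cxcl12 and Bambi, a pseudoreceptor for TGF-beta ligands. The immediate early genes Fos and Egr1 were among its 12 leading genes.

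Among the epithelial clusters, regional genes were split between cells. Shh reached 181 and 414 CPM in cluster 1 in libraries 1 and 2 and 261 and 589 CPM in cluster 4. Of its 207 UMIs in library 1, 56 came from 1 cell. That cell lay in cluster 1 or 4, which held 82 and 97 UMIs, as clusters 2 and 3 held 6 and 22. In cluster 3 it reached 29.8 and 0 CPM. Sox17 ran the other way, with 609 and 100 CPM in cluster 3, against 59.5 and 0 CPM in cluster 1 and 80.8 and 0 CPM in cluster 4. Trap1a, an X-linked gene that is active in extraembryonic lineages, was at 111 and 226 CPM in cluster 3 and at 0 in both libraries in cluster 1. In cluster 4 it was at 26.93 and 19.98 CPM. Rhox5 did not set clusters 3 and 4 apart. It was at 36.5 and 126 CPM in cluster 3 and at 43.1 and 99.9 CPM in cluster 4. In cluster 1 Rhox5 was at 2.21 and 0 CPM. Pyy was at 33.1 and 150 CPM in cluster 1 and at 0 in both libraries in cluster 3. In cluster 1 a single cell held 7 of its 15 UMIs in library 1, and another held 24 of its 46 in library 2. Cdx4, a relative of Cdx2, stood at 137 and 180 CPM in cluster 4, at 22.1 and 88.1 CPM in cluster 1 and at 8.12 and 0 CPM in cluster 3. Cluster 3 of library 2 held only 7 cells, so its values there rest on few molecules.

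**Figure D2:**
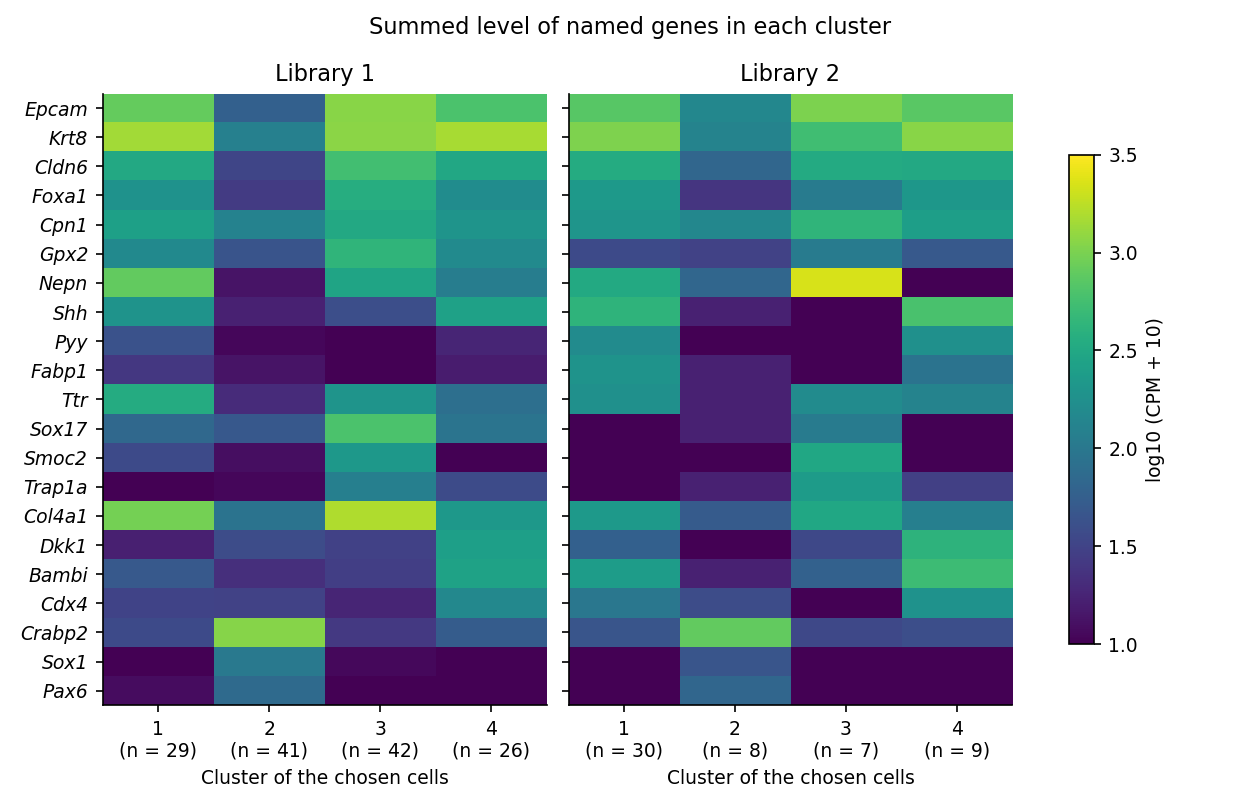
Colour gives log10 of CPM plus 10 of counts summed over the cells of each cluster (columns, with their cell numbers) for 21 genes (rows) in libraries 1 and 2. Epithelial genes are high in clusters 1, 3 and 4, Crabp2, Sox1 and Pax6 in cluster 2, Sox17 and Smoc2 in cluster 3, Shh in clusters 1 and 4, and Dkk1 and Bambi in cluster 4.

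The makeup of the Cdx2-negative gut cells differed between the libraries. Cluster 1 took 21.0% of them in library 1 and 55.6% in library 2, and cluster 3 took 30.4% and 13%. Levels of single genes differed between the libraries too, over all the cells and within clusters. Sox17 was at 223 CPM in library 1 and 8.51 CPM in library 2, and Pyy was at 7.84 and 107 CPM. A single cell held 24 of the 63 Pyy UMIs of library 2. Shh was at 85.4 CPM in library 1, found in 47 of 138 cells, and at 318 CPM in library 2, found in 36 of 54 cells. Cdx2-positive gut cells showed the same order between libraries for these genes: Sox17 at 179 and 41.1 CPM, Pyy at 2.58 and 19.7 CPM, and Shh at 88.8 and 162 CPM. With 1 group, a difference in dissection between the libraries and a difference in the cells cannot be told apart.

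A Cdx2 count of 0 also depends on depth. Among gut cells of both classes, the share with no Cdx2 UMI was 43.6% of 39 cells with 2000 to under 5000 UMIs in library 1 (exact 95% interval 27.8 to 60.4%), 23.5% of 51 cells with 5000 to under 10000 (12.8 to 37.5%), 14.4% of 409 cells with 10000 to under 20000 (11.2 to 18.2%) and 7.29% of 686 deeper cells (5.46 to 9.50%). In library 2 the shares were 90.0% of 10 cells, 16.1% of 87, 7.95% of 365 and 2.22% of 90 cells. The deepest cells of library 2 had an interval of 0.270 to 7.80%. Intervals cover counting error only. Over all depths, Cdx2-negative cells made up 11.6% of gut cells in library 1 (9.87 to 13.6%) and 9.78% in library 2 (7.43 to 12.6%). Both classes include cells with little Epcam. With at least 3 Epcam UMIs the shares were 8.90% (7.20 to 10.8%) and 8.70% (6.39 to 11.5%). By rising depth they were then 12.5% of 8, 29.3% of 41, 12.4% of 356 and 5.31% of 584 cells in library 1. In library 2 they were 100% of 5, 16.5% of 79, 7.35% of 340 and 1.22% of 82 cells. How many of the Cdx2-negative cells carried Cdx2 transcripts that were not caught was not tested. With at least 10000 UMIs per cell, 109 and 31 Cdx2-negative cells were left.

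**Figure D3:**
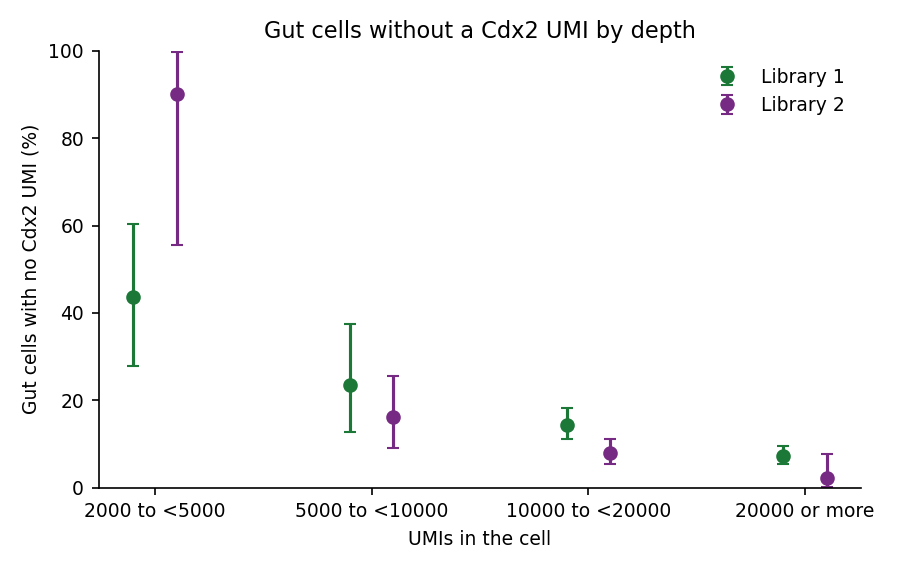
Points give the share of gut cells (Cdx2-negative and Cdx2-positive together) with no Cdx2 UMI, in percent, for cells in 4 ranges of UMIs per cell in libraries 1 and 2, and bars give exact 95% binomial intervals. The share falls from 43.6% to 7.29% in library 1 and from 90.0% to 2.22% in library 2 as depth rises.

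The comparison with Cdx2-positive gut cells asked what else differs between gut cells with and without Cdx2. Genes of the hindgut and tail end were lower in Cdx2-negative gut cells: 10 of 16 genes of that list were called lower and 0 higher by edgeR's quasi-likelihood test on summed counts with library as a block (adjusted p under 0.05). Over all 14057 genes tested, 38 were called lower, or 0.27%, and 7 higher, or 0.0498%. The median log2 fold of the list was -1.90, against -0.03 over all genes. In cells with at least 3 Epcam UMIs the list had 0 calls in either direction by edgeR, with 14 genes at an unadjusted p under 0.05 and 10 called by DESeq2. All 16 genes were below 0 there and the median was -1.85. In that subset 5 of 13807 genes were called lower, or 0.0362%, and 1 higher, or 0.00724%, while 550 higher and 964 lower genes had an unadjusted p under 0.05. All 38 genes called lower over all cells were below 0 there with an unadjusted p under 0.05. The subset is part of the same cells, so these genes were likely to keep their direction, which is no separate support. Over all 13829 genes in that fit, rule and mitochondrial genes included, 7617 were below 0. Since Cdx2-negative and Cdx2-positive cells were cut from the same libraries by 1 gene, genes that vary together with Cdx2 among gut cells were bound to take part in the contrast.

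Among the transcription factors of the tail end, T, the brachyury gene of streak and tail bud, was at 10.3 and 6.81 CPM in Cdx2-negative gut cells, against 60.7 and 34.1 CPM in Cdx2-positive gut cells. Of its 25 UMIs in Cdx2-negative cells of library 1, 13 came from 1 cell. Its log2 fold was -2.48 ± 0.26 (SE; edgeR adjusted p = 0.0115), and -3.17 (adjusted p = 0.0658) in cells with Epcam. Cdx4 was at 35.1 and 83.4 CPM, against 171 and 182 CPM (log2 fold -1.89 ± 0.22, edgeR adjusted p = 0.0198). The homeobox gene Evx1 was at 9.90 and 13.6 CPM in Cdx2-negative gut cells, against 45.5 and 24.8 CPM (log2 fold -1.90 ± 0.27, adjusted p = 0.0322). The zinc finger gene Sp5, a Wnt target, was at 91.2 and 20.4 CPM, against 308 and 87.5 CPM (log2 fold -1.75 ± 0.21, adjusted p = 0.0205). For each of these genes, both libraries had the lower level in Cdx2-negative gut cells. Cdx1 did not follow over all cells: it was at 66.4 and 20.4 CPM in Cdx2-negative gut cells, against 115 and 15.4 CPM (edgeR adjusted p = 0.406). The libraries thus differed in direction. Cluster 2 held 129 CPM of Cdx1 over both libraries, against 25.0, 24.4 and 12.7 CPM in clusters 1, 3 and 4. In cells with at least 3 Epcam UMIs, all 16 genes of the tail-end list, Cdx1 among them, were lower in both libraries.

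Sequence at the start of these genes is shown for the 2 whose window held a motif sought. Windows run from 250 bases before to 50 after the start in RefSeq (GRCm38.p6), and 7 of the 10 genes called lower in the tail-end list had an entry, while Fgf8, Fgf17 and Tlx2 had none. The motifs, sought on both strands, were TTTATG, bound by CDX factors, and CTTTGA, bound by the TCF/LEF partners of beta-catenin. Of 27025 promoter windows, 12.1% held the first and 16.2% the second. Capitals mark the matches, 1 of each motif for T and 2 of CTTTGA for Sp5. A match is a string of letters, and the data hold no measurement of binding. The windows are chr17:8434173-8434472 on the plus strand for T and chr2:70474673-70474972 on the plus strand for Sp5.
T: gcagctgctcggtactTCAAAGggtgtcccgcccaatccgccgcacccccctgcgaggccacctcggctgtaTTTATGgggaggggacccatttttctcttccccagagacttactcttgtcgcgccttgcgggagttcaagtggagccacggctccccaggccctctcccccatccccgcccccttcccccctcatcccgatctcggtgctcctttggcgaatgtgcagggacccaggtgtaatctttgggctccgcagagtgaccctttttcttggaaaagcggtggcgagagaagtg
Sp5: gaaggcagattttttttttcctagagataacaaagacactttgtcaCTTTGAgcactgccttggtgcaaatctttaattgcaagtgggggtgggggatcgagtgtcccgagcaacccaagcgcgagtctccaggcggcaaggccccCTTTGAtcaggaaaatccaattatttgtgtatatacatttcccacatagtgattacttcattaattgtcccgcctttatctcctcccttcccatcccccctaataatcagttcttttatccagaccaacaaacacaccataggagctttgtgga

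Several secreted signals of the tail end and their feedback genes were lower in the same cells. Fgf8, an FGF ligand of the tail bud, was at 6.60 and 27.2 CPM in Cdx2-negative gut cells, against 208 and 89.8 CPM in Cdx2-positive gut cells (log2 fold -3.93 ± 0.48, edgeR adjusted p = 0.0205). It was found in 9 of 138 and 5 of 54 Cdx2-negative cells. Fgf17, a related ligand, rested on 8 and 1 UMIs, at 3.3 and 1.70 CPM, against 47.0 and 45.6 CPM (log2 fold -3.92 ± 0.39, adjusted p = 0.0105). Of 21 FGF genes tested, 5 were called lower: both ligands, the ETS factor gene Etv4, the phosphatase gene Dusp4 and the FGF antagonist gene Il17rd. Etv4 was at 12.8 and 27.2 CPM in Cdx2-negative gut cells, against 88.4 and 61.7 CPM. Fgf15 was the 1 FGF gene called higher, at 28.9 and 10.2 CPM, against 8.16 and 3.92 CPM. Its log2 fold of 1.72 (adjusted p = 0.0316) was -0.04 in cells with Epcam. Dusp4 alone of the FGF genes was called in cells with Epcam (log2 fold -1.68, adjusted p = 0.0361).

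Of 34 Wnt genes, 7 were called lower and 1 higher. Rspo3, which encodes an R-spondin that strengthens Wnt signals, was at 8.66 and 8.51 CPM in Cdx2-negative gut cells, against 92.8 and 101 CPM in Cdx2-positive gut cells. The 4 values did not overlap, and the log2 fold was -3.51 ± 0.17 (edgeR adjusted p = 9.8e-05), or -3.71 (adjusted p = 0.0014) in cells with Epcam. It was found in 14 of 138 and 5 of 54 Cdx2-negative cells, with at most 4 UMIs in a cell, and in 568 of 1047 Cdx2-positive cells of library 1. The Wnt receptor gene Fzd10 was at 27.2 CPM in both libraries, against 78.5 and 61.1 CPM (log2 fold -1.45 ± 0.16, adjusted p = 0.0115). In cells with Epcam its log2 fold was -2.55 (adjusted p = 0.0418). The ligand genes Wnt5b and Wnt6 and the feedback genes Nkd1 and Axin2 fell as well, Nkd1 to 17.3 and 11.9 CPM in Cdx2-negative gut cells, against 95 and 43.2 CPM. These 4 stayed below 0 in cells with Epcam but lost their calls, with edgeR adjusted p of 0.0800 for Wnt5b, 0.152 for Wnt6, 0.0612 for Nkd1 and 0.111 for Axin2. Sfrp5, a secreted Wnt inhibitor of the foregut, was the Wnt gene called higher (log2 fold 2.27 ± 0.20, adjusted p = 0.00825; 2.40 with Epcam, adjusted p = 0.0361). It was at 91.6 CPM in library 1, in 52 of 138 Cdx2-negative cells, against 18.7 CPM. Of its 222 UMIs there, 119 lay in 27 of the 88 cells with Epcam, and the rest in cells with fewer Epcam UMIs. In cells with Epcam it was at 74.0 CPM, against 13.6 CPM. Sfrp5 in library 2 rested on 2 UMIs in 1 cell, at 3.40 CPM, against 0.523 CPM.

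Genes of retinoic acid metabolism moved in both directions. Cyp26a1, the enzyme that clears retinoic acid, was at 12 and 3.40 CPM in Cdx2-negative gut cells, against 129 and 61.7 CPM in Cdx2-positive gut cells (log2 fold -3.36 ± 0.47, edgeR adjusted p = 0.0322, or 0.111 in cells with Epcam). Aldh1a2, the enzyme that makes it in the trunk, was at 92.4 and 37.4 CPM, against 27.7 and 11.5 CPM (log2 fold 1.63 ± 0.20, adjusted p = 0.0205). Of its 224 UMIs in library 1, 52 came from 1 cell, and cluster 2 held 196 CPM over both libraries, against 24.9 CPM in the other clusters. In cells with Epcam the log2 fold was 1.39 (adjusted p = 0.0800). There Aldh1a2 was found in 12 of 88 cells of library 1, and 52 of its 121 UMIs came from 1 cell. Library 2 held 10 UMIs in the subset. The receptor gene Rarb, at 62.3 and 27.2 CPM, against 11.9 and 13.7 CPM, missed the threshold (adjusted p = 0.0503). The other 14 tested genes of the list were not called.

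**Figure D4:**
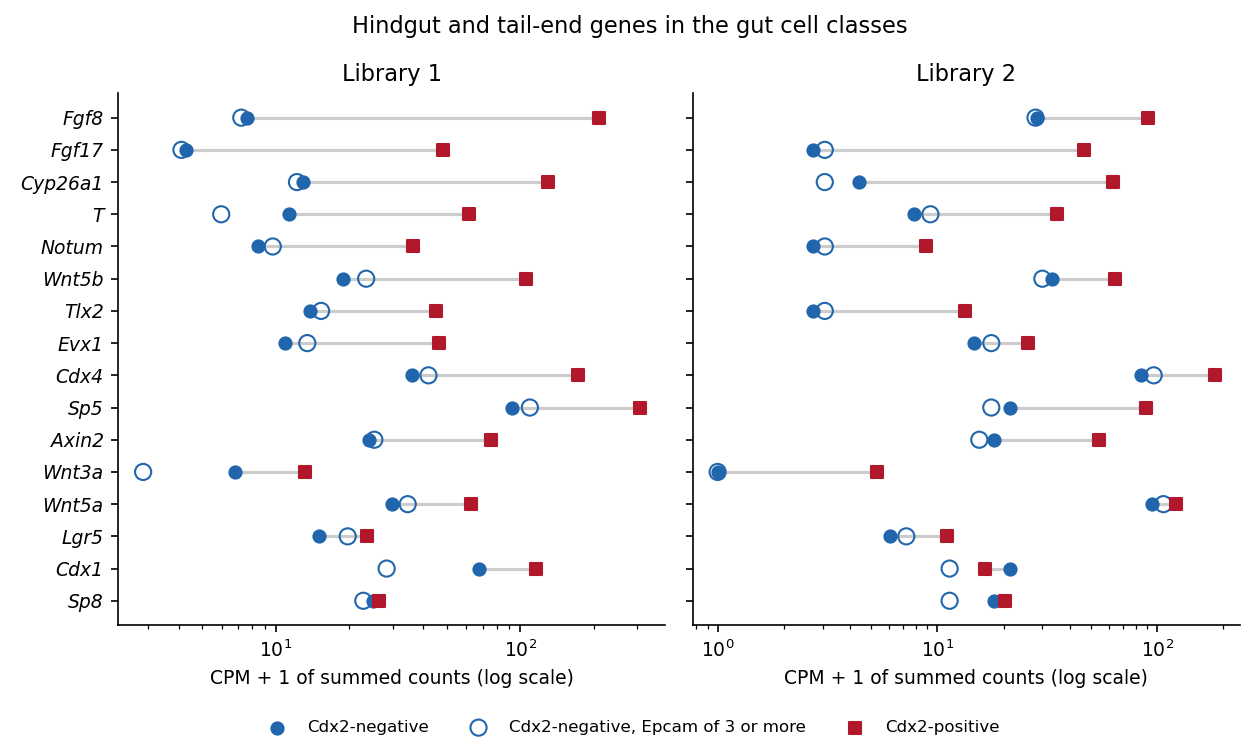
CPM plus 1 of summed counts (x axis, log scale) of the 16 hindgut and tail-end genes (rows, ordered by log2 fold) in libraries 1 and 2, for Cdx2-negative gut cells (filled circles), those with at least 3 Epcam UMIs (open circles) and Cdx2-positive gut cells (squares). Filled circles lie left of the squares except for Cdx1 in library 2, at 20.4 against 15.4 CPM.

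The Hox genes stood below their level in Cdx2-positive gut cells mostly in groups 6 to 8, by their medians. Summed over the 8 genes of these groups, Cdx2-negative gut cells held 99.0 and 347 CPM, against 538 and 548 CPM in Cdx2-positive gut cells. Of the 8 genes, 7 were lower in both libraries, where 26.3% of all genes were, and 1, Hoxa7, was called (23.5 and 52.7 CPM, against 66.8 and 102 CPM; log2 fold -1.32 ± 0.17, edgeR adjusted p = 0.0247). The median log2 fold was -1.71 in groups 6 to 8, -0.08 in groups 1 to 3, -0.58 in groups 4 and 5 and -1.08 in groups 9 to 13. In cells with Epcam the medians were -1.79, -0.79, -1.30 and -1.26 in the same order. Hoxb8, a trunk Hox gene, was at 28.9 and 97.0 CPM in Cdx2-negative gut cells, against 169 and 133 CPM (adjusted p = 0.138). Groups 9 to 13, the tail-end genes, summed to 53.6 and 384 CPM, against 204 and 438 CPM, with 0 of 12 tested genes called by edgeR, 4 at an unadjusted p under 0.05 and 3 called by DESeq2. Groups 1 to 3 summed to 227 and 151 CPM, against 195 and 178 CPM, or 126 and 116 CPM, against 163 and 169 CPM, in cells with Epcam. Hoxa3 was called lower within them, at 12.8 and 17.0 CPM, against 28.1 and 40.4 CPM (log2 fold -1.21 ± 0.18, adjusted p = 0.0420). The antisense transcript Hoxaas3 was called lower too, at 38.0 and 73.2 CPM, against 202 and 185 CPM, and since no source used here tells whether strand was counted, its reads and those of its Hoxa neighbours may not be separable. These calls were lost in cells with Epcam, with edgeR adjusted p of 0.111 for Hoxa7, 0.0887 for Hoxa3 and 0.0530 for Hoxaas3.

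Within gut cells that held at least 3 Epcam UMIs, Hox levels were graded by the number of Cdx2 UMIs. For 0, 1 to 2, 3 to 5, 6 to 9 and 10 or more Cdx2 UMIs, groups 6 to 8 summed to 101, 259, 454, 609.8 and 713 CPM in library 1 and to 344, 458, 541, 585 and 679 CPM in library 2. T ran from 4.98 to 91.3 CPM in library 1 and from 8.29 to 45.7 CPM in library 2 over the same steps. Pyy ran the other way, from 11.2 to 0.244 CPM and from 128 to 1.27 CPM. At 0 Cdx2 UMIs, a single cell held 7 of 18 Pyy UMIs in library 1, and another held 24 of 62 in library 2. The cells with no Cdx2 UMI thus stood at the low end of a series in which neighbouring steps differed as well. Median depth went up along the steps, from 16102 to 27401 UMIs in library 1, and its part in these values was not tested.

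**Figure D5:**
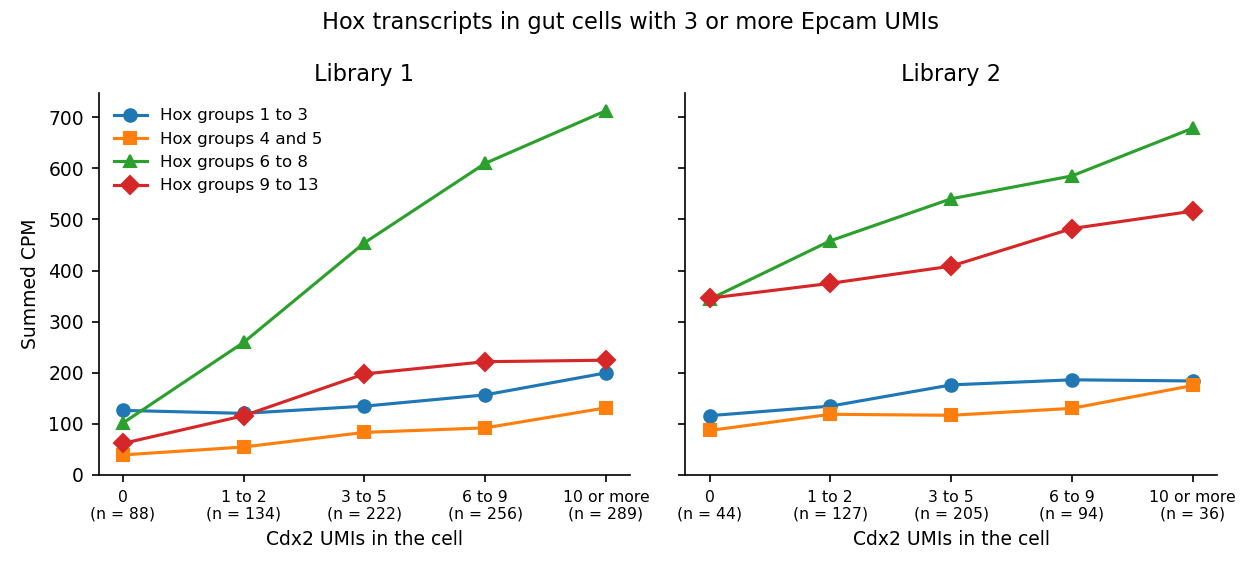
Summed CPM of 4 sets of Hox genes (lines) in gut cells with at least 3 Epcam UMIs, by the number of Cdx2 UMIs in the cell (x axis, with cell numbers), for libraries 1 and 2. Groups 6 to 8 climb from 101 to 713 CPM in library 1 and from 344 to 679 CPM in library 2. Groups 1 to 3 go from 126 to 199.7 CPM and from 116 to 184 CPM. All 4 sets are higher at 10 or more Cdx2 UMIs than at 0 in both libraries.

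Beyond these lists, Epha5, an ephrin receptor gene, was called lower over all cells and in cells with Epcam. It was at 9.49 and 23.8 CPM in Cdx2-negative gut cells, against 97.7 and 93.9 CPM (log2 fold -3.0 ± 0.28, edgeR adjusted p = 0.00956; -3.53 and 0.0130 with Epcam). Hes7, an oscillating Notch target of the presomitic mesoderm, was at 5.36 and 0 CPM, against 52.6 and 25.2 CPM (edgeR adjusted p = 0.0322, or 0.123 in cells with Epcam). Of the 7 genes called higher, Tent5a, a poly(A) polymerase gene, was found in 62 of 138 and 8 of 54 Cdx2-negative cells, at 83.8 and 27.2 CPM, against 18.5 and 11.0 CPM (log2 fold 1.84 ± 0.28, adjusted p = 0.0423). Its log2 fold in cells with Epcam was 2.17 (adjusted p = 0.0658). The kinase gene Pkdcc and the homeobox gene Irx1 were called higher over all cells, with log2 folds of 1.76 and 1.60, and were at 1.08 and 0.98 (adjusted p = 0.396 for each) in cells with Epcam. Mesp2, a segmentation gene of the presomitic mesoderm, was called higher (log2 fold 2.68 ± 0.36, adjusted p = 0.0300), but 50 of its 54 UMIs in library 1 lay in 1 cell, and all 8 of library 2 lay in 1 cell.

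Most identity genes of the gut tube showed no call between Cdx2-negative and Cdx2-positive gut cells by this test. Of 19 tested gut endoderm transcription factors edgeR called 0 (median log2 fold -0.07), with 3 at an unadjusted p under 0.05, and DESeq2 called 0. Foxa2 was at 36.7 and 44.2 CPM in Cdx2-negative gut cells, against 36.5 and 44.3 CPM. The foregut list had 1 call, Irx1, in 13 genes, with 5 at an unadjusted p under 0.05, 2 called by DESeq2 and a median log2 fold of 0.69. In cells with Epcam its median was 0.37, with 0 calls by edgeR, 3 genes at an unadjusted p under 0.05 and 0 called by DESeq2. Nkx2-1 and Foxe1, which mark the thyroid and lung fields, had 0 UMIs in Cdx2-negative gut cells of both libraries, and neither passed the filter on low counts. The midgut, liver and pancreas list had 0 calls in 9 genes, with 1 at an unadjusted p under 0.05 and 0 called by DESeq2, and Alb had 0 UMIs. Pyy, at 7.84 and 107 CPM in Cdx2-negative gut cells, against 2.58 and 19.7 CPM, had a log2 fold of 2.13 ± 0.93 (adjusted p = 0.527). Hedgehog genes had 0 calls in 16, with 4 at an unadjusted p under 0.05 and 1 called by DESeq2. Shh itself was at 85.4 and 318 CPM, against 88.8 and 162 CPM (adjusted p = 0.745). Visceral endoderm genes had 0 calls in 22, with 3 at an unadjusted p under 0.05 and 0 called by DESeq2, summing to 1342 and 648 CPM, against 790 and 489 CPM, and Spink1 made up 839 and 299 CPM of the Cdx2-negative sums. Genes of S phase, of G2 and mitosis and of glycolysis had 0 calls in 22, 22 and 17, with 3, 5 and 4 at an unadjusted p under 0.05 and 0 called by DESeq2. With 2 libraries a missed threshold does not show equal levels.

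Markers of other cell types were examined by whole lists. Neural tube markers summed to 225 and 182 CPM in Cdx2-negative gut cells, against 97.3 and 81.2 CPM in Cdx2-positive gut cells. In cells with Epcam the sums were 64.7 and 41.4 CPM, against 54.1 and 58.0 CPM. Caudal epiblast markers summed to 273 and 136 CPM, against 1004 and 487 CPM, and 7 of 12 were called lower, 6 of which are also in the tail-end list. In cells with Epcam edgeR called 1 of the 12 lower, with 10 at an unadjusted p under 0.05 and 7 called by DESeq2. The median log2 fold of the list was -2.58 there, against -1.83 over all cells. Somite markers summed to 270 and 148 CPM, against 132 and 99.4 CPM, with Aldh1a2 called, and barcodes without marker transcripts held 425 and 360 CPM. Endothelium markers summed to 397 and 64.7 CPM, against 276 and 132 CPM. The embryonic haemoglobin genes Hba-x, Hbb-bh1 and Hbb-y had 0 UMIs in Cdx2-negative and Cdx2-positive gut cells of library 1, so their calls as lower rested on library 2. There Hba-x was at 318 CPM in Cdx2-negative gut cells, 160 of 187 UMIs being in 1 cell, against 887 CPM in Cdx2-positive gut cells and 3892 CPM in barcodes without marker transcripts. With at least 5 marker UMIs the direction turned, at 563 CPM in Cdx2-negative gut cells, against 21.5 CPM (log2 fold 4.60). The part of other cells' RNA in the called genes was not tested.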

How the data were processed

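Caudal tissue of wild-type embryos was measured in 2 droplet libraries. The deposited files hold counts, UMIs of each gene in each barcode, over 32286 features, 1 of them an eGFP sequence, made with Cell Ranger 6.1.1 on mm10 per the file headers and the submitters' processing notes. No source used here gives the annotation or the handling of strand. The members and lists were chosen with earlier results of these data known.

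Library 1 held 30449 barcodes and library 2 held 18245, of which 761 were shared. From these counts, cells were chosen by the stated rule, and their counts were summed within each class and library, giving 2 sums per class. Cdx2-negative gut cells, Cdx2-positive gut cells and barcodes without marker transcripts entered 1 fit with edgeR 4.0.16 (TMM, filterByExpr, quasi-likelihood F test, prior count 2, library as a block, which pairs classes cut from the same library), with 2 residual degrees of freedom. The p-values are two-sided, with Benjamini-Hochberg adjustment over every gene tested and a threshold of 0.05. The 9 genes of the rule and mitochondrial genes were left out of counts of calls. Standard errors came from the log2 fold and its F statistic. The contrast with barcodes without marker transcripts is a description with a pseudocount of 20 CPM. Named genes were the 12 called with the largest folds in each direction, with the same sign in both libraries and at least 30 CPM in the higher class, up to 4 called genes per list, and the 15 largest against barcodes without markers; others named in the text were chosen after their values were seen. Members were clustered with Scanpy 1.11.5 (15 principal components centred per library, 15 neighbours, Leiden at resolution 0.5). Scrublet marked 6.69% and 1.95% of barcodes, under its expected 24.4% and 14.6%. The fit was tested on simulated counts. It recovered 50 of 100 genes with a true log2 fold of 1 in size and 68 of 100 with 2. False calls numbered 5 in that fit of 13767 genes. Alternatives were other scalings, filters, thresholds, depths, DESeq2 1.42.0 and, added after the data were seen, at least 3 Epcam UMIs or markers without Cpn1.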

Additional observations from a re-analysis of the deposited data

Results flagged for a closer look

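Barcodes with under 0.3% mitochondrial UMIs were not kept, yet 107 of them in library 1 and 22 in library 2 met the rest of the rule for Cdx2-negative gut cells. They held few transcripts, with medians of 5098 and 4466.5 UMIs, and 37 and 8 of them held at least 3 Epcam UMIs. Among gut cells of both classes with so few mitochondrial UMIs, the share with no Cdx2 UMI was 25.3% in library 1 (exact 95% interval 21.2 to 29.7%) and 27.8% in library 2 (18.3 to 39.1%).

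The custom eGFP sequence gave 16 UMIs in 12 of 138 Cdx2-negative gut cells of library 1, or 6.60 CPM, against 6.99 CPM in Cdx2-positive gut cells and 4.0 CPM in barcodes without marker transcripts. In library 2 it gave 1 UMI. The labels name wild-type embryos.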

How the results depend on the processing

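The tail-end result kept its direction throughout: all 16 genes were below 0 in each of the fits run, with medians from -2.03 to -1.35. The number called lower ranged from 0 to 13. These fits drew on the same 2 libraries and overlapping cells, so they are not separate support. Counts of calls moved with the test. Genes called higher and lower numbered 7 and 38 as reported, 43 and 63 with DESeq2, 170 and 297 with every gene of at least 1 count, 139 and 165 with only the 2 compared classes, and 0 and 1 with no replicate block, where edgeR gave 235 higher and 343 lower genes at an unadjusted p under 0.05. The block stands for the library from which both classes were cut. They numbered 7 and 23 without barcodes marked by Scrublet, 3 and 5 with at least 5 marker UMIs, 5 and 22 with Apoa1, Ttr and Apob under 5 in sum, 2 and 11 with barcodes of low mitochondrial share included, 11 and 47 with at least 10000 UMIs, 13 and 46 with Cdx2-positive cells from 3 UMIs, and 10 and 20 with each cell thinned to 2000 UMIs. With RLE size factors they numbered 5 and 31. With at least 3 Epcam UMIs they numbered 1 and 5, and without Cpn1 among the markers 1 and 8, both chosen after the data were seen. The cause of these shifts was not tested, beyond fewer cells or genes entering some fits. The haemoglobin genes Hba-x, Hbb-bh1 and Hbb-y reversed to log2 folds of 4.60, 4.23 and 4.15 with at least 5 marker UMIs and to 5.86, 5.45 and 5.55 with low mitochondrial shares included. Under the first, Hba-x in library 2 had 171 UMIs left in Cdx2-negative gut cells, against 111 in Cdx2-positive gut cells, where 187 against 6785 had been counted before. The share of kept barcodes that were Cdx2-negative gut cells was 1.23% in library 1 and 0.649% in library 2. It moved to 0.810% and 0.348% with at least 5 marker UMIs, to 0.998% in library 1 with Apoa1, Ttr and Apob under 5, to 0.784% in library 1 with at least 3 Epcam UMIs and to 0.908% and 0.409% without Cpn1. Of the 30 genes named from the calls, 29 kept their call with at least 10000 UMIs and 4 with at least 5 marker UMIs. Leaving out either library left 1 library and no residual degrees of freedom, so counts of calls could not be tested then. The log2 fold in the library left, taken with a pseudocount of 20 CPM, was set against the log2 fold of the fit. It differed by more than the spread between libraries for 27 of the 30 genes without library 1, and for 22 without library 2. The 2 measures are unlike: Rspo3 was at -3.51 in the fit and at -1.98 and -2.08 in libraries 1 and 2. These counts therefore cannot tell reliance on 1 library from the change of measure. Library 2, with 54 Cdx2-negative gut cells, limits the precision of every gene.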

Other observations

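Genes of the basement membrane, the protein sheet under an epithelium, were measured in the same comparison. Of 21 genes edgeR called 0, with 4 at an unadjusted p under 0.05, and DESeq2 called 0. The collagen gene Col4a1 was at 716 and 162 CPM in Cdx2-negative gut cells of libraries 1 and 2, against 289 and 137 CPM in Cdx2-positive gut cells (log2 fold 1.01 ± 0.37, adjusted p = 0.453). The laminin gene Lama1 was at 42.9 and 54.4 CPM, against 26.4 and 36.9 CPM (adjusted p = 0.317). Of 23 genes of BMP, Nodal and TGF-beta signalling edgeR called 0, with 7 at an unadjusted p under 0.05, and DESeq2 called 1. The ligand genes Bmp4 and Bmp7 had log2 folds of -1.27 and -0.90 (adjusted p = 0.296 and 0.205). Of 24 glutathione and antioxidant genes edgeR called 0, with 4 at an unadjusted p under 0.05, and DESeq2 called 1.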
